A study of Mus musculus with 12 samples.

Results

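Cytoplasmic ribosomal proteins are the protein parts of the ribosomes that translate messenger RNA outside mitochondria. Their genes were taken by symbol, as protein-coding Rpl, Rps and Rpsa genes with a mean level of at least 1 CPM. CPM is the usual share of a library's total count, scaled here by the library's TMM normalization factor. The rule uses the mean over all libraries and no difference between times. It gave 81 of the 38594 genes with an Ensembl ID in the table. They comprise 43 proteins of the large subunit, 31 of the small subunit, the 3 stalk proteins Rplp0, Rplp1 and Rplp2, and 4 paralogs, Rpl3l, Rpl7l1, Rpl22l1 and Rps27l. Of 87 symbols with the form of these names, 5 are not annotated as protein-coding (Rpl32l, Rps3a2, Rps3a3, Rpl6l and Rps4l). The nearest protein-coding gene below the minimum was Rpl39l, at 0.098 CPM and so far under it, and the nearest above was Rpl3l, at 1.05 CPM before scaling. All 81 also passed the filter on low values.

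The data are RNA-seq profiles of lumbar dorsal root ganglia (DRG), which hold the cell bodies of sensory neurons of the body and limbs. The 12 libraries came from male C57BL6J mice, called naive in the labels and 6 to 12 weeks old, killed at zeitgeber time (ZT, hours after lights on) 2, 8, 14 or 20, with 3 libraries at each time. No genotype or treatment distinguished the groups, and the labels do not say whether animals were pooled. Nor do they say how many animals the 3 libraries of a time represent, so p-values measure the spread between libraries, whether biological or technical. The series' title joins the clock genes of nociceptors, sensory neurons for harmful stimuli, to excitability and pain, and the question here is whether the messages for the translation machinery differed with the time of day.

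A ribosome needs its proteins in fixed proportion to its RNA, and cells make them from many separate genes whose messages are abundant and short. Most of these messages begin with a C followed by a run of C and T, the terminal oligopyrimidine tract, through which mTORC1 and the RNA-binding protein LARP1 control their translation. That control acts on how much of the message is translated and need not alter its amount, which is all that these libraries measure. In sensory neurons local translation in axons is one of the settings in which ribosomal protein messages have been studied.

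The tract is shown for members on which the results below turn, as 30 bases around an annotated transcript start from RefSeq on GRCm38.p6, 10 before the start and 20 from it on. The longest run of C and T is in capitals, and each sequence reads 5′ to 3′ on the gene's strand. The first 5 windows hold a run of at least 8, and the last 3 do not. Rpl35a has 3 annotated starts, and the windows of the other two have longest runs of 4 and 5. Rpl22 and Rpl3l each have a further start, with longest runs of 3 and 4. The Rpl22 window shown lies upstream of the gene as annotated, which begins at 152325742. The window of its further start, 152325716-152325745, reaches the gene.
Rps18, chr17:33955646-33955675, minus strand: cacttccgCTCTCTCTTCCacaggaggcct
Rps6, chr4:86857348-86857377, minus strand: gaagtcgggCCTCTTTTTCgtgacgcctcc
Rpl35a, chr16:33056472-33056501, plus strand: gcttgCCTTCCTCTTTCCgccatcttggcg
Rpl13a, chr7:45128726-45128755, minus strand: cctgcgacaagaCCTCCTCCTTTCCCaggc
Rps12, chr10:23787190-23787219, minus strand: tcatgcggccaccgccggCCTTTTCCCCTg
Rplp0, chr5:115559457-115559486, plus strand: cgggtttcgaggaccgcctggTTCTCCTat
Rpl22, chr4:152324426-152324455, plus strand: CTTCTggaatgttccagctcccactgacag
Rpl3l, chr17:24727816-24727845, plus strand: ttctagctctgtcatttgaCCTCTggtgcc

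Promoter entries were at hand for 61 of the 81 genes, with 73 annotated starts. A run of 8 or more C or T lay in the window of 24 of the 73 starts (32.9%), against 3691 of 32841 starts of all genes (11.2%). An annotated start can lie some bases from the base where transcription begins, so a window without a run says only that these letters are not there. From 250 bases before to 50 bases after the start, on either strand, GGGCGG, the GC box, was found at 60.3% of the members' starts and 35.7% of all starts. CCGGAA, the core of sites for ETS factors, was found at 47.9% against 14.9%, and ATGGCG, the core of YY1 sites, at 30.1% against 8.93%. CACGTG, the E-box that the clock proteins CLOCK and BMAL1 can bind, was found at 11.0% of the members' starts and 7.15% of all starts. TATAAA was found at 9.59% against 13.6%. No 2 of these matches overlapped in a member. A match describes the letters of the window and was not tested as a site.

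The totals of the deposited estimated counts were 89.8 to 125.0 per library in units of 1000000. They follow coverage rather than reads, so that values compare genes per length, and approximate read depths were 47.9 to 67.1 in that unit. Summed markers of sensory neurons (12 genes such as Prph, Calca and Avil) were between 20118 and 21298 CPM in every library, and those of spinal cord (5 genes) between 6.00 and 8.46 CPM. As a check that time of day is visible, 8 of 10 clock genes passed the 24-h test. Bmal1, listed as Arntl, averaged 6.24, 2.82, 2.63 and 6.39 CPM at ZT2, ZT8, ZT14 and ZT20 (adjusted p = 0.000399 in edgeR's quasi-likelihood test), and Nr1d1 averaged 27.0, 48.5, 26.6 and 13.3 CPM (adjusted p = 0.0128 in the same test). DRG are a mixture of cells, so fewer cells of a type and less RNA per cell cannot be told apart in any value given here.

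Ribosomal protein messages were abundant, and their levels lay in a stable order. Per-length levels spanned 1.06 CPM for Rpl3l to 955 CPM for Rplp1, with a median of 299 CPM and quartiles of 173 and 438 CPM, where the median of all genes tested was 3.49 CPM. Of the 81 members, 74 lay between 100 and 1000 CPM and 7 below 100. The large and the small subunit had nearly equal medians, 304 and 302 CPM. Among the 5 highest were Rplp1, an acidic stalk protein that helps to recruit translation factors, Rpl41, the smallest ribosomal protein, Rpl10, one of the last proteins to join the large subunit, and Rps15, a small-subunit protein near the decoding site. These 4 were among the highest 5 in each of the 12 libraries. The 5 lowest were Rpl3l, Rpl7l1, Rps15a, Rps27l and Rpl22l1, and 4 of them, all but Rpl22l1, were among the lowest 5 in every library. Over the 66 pairs of libraries the rank correlation of the 81 levels, across genes that are not independent replicates, was at least 0.987.

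**Figure D1:**
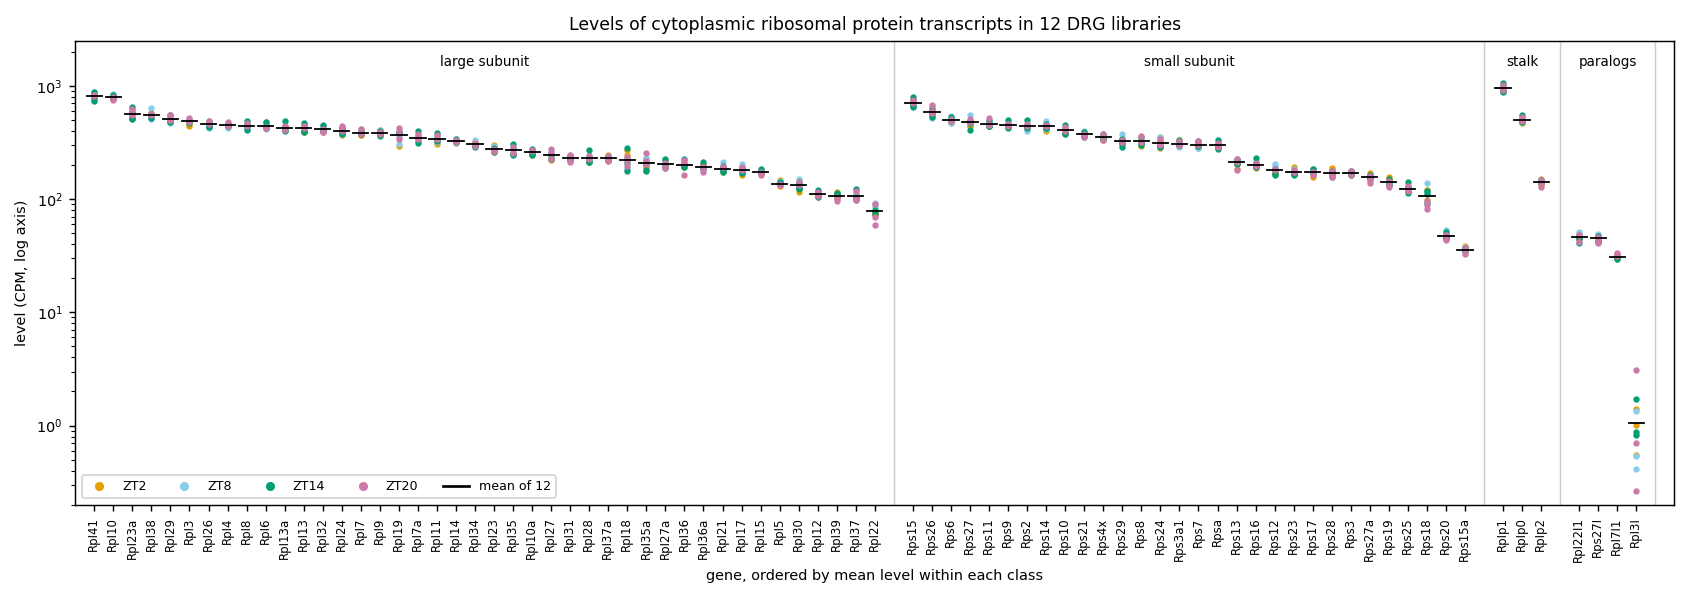
Level of 79 of the genes (CPM per length, log axis) in 12 libraries, as points coloured by zeitgeber time, with a bar at the mean of 12, the genes being ordered by level within large subunit, small subunit, stalk and paralogs. Points of one gene lie close together except for Rpl3l, which ranged between 0.26 and 3.08 CPM.

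Message levels were unequal among proteins of one structure. Rplp1, at 955 CPM, was the highest of the stalk proteins, Rplp0, which anchors the stalk, had 500.0 CPM, and Rplp2, the partner of Rplp1, had 142 CPM. In the small subunit, Rps15 had 710 CPM and Rps15a, another protein of that subunit despite the similar name, 35.8 CPM. How reads of similar genes were assigned bears on these levels and was not tested. Of the 81 genes, 70 share at least 1 stretch of 150 bases, the length of a read, with another annotated gene, often a processed pseudogene, and in 41 such stretches made up 10% or more of the positions. The share was highest in Rpl23a (63.2%), was 37.5% in Rps6, 22.2% in Rpl10 and 12.0% in Rplp1, and was 0 in Rps15, Rpl22, Rpl39, Rpl7l1, Rps27l and Rpl3l. Levels of genes with shared stretches are therefore uncertain.

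With time of day, no ribosomal protein gene passed the test. The test was edgeR's quasi-likelihood test over 25809 genes with Benjamini-Hochberg adjustment and a threshold of 0.05. It was run for any difference between the 4 times, for a 24-h component, for a 12-h alternation (ZT2 and ZT14 together against ZT8 and ZT20), and for the contrasts ZT14 to ZT2 and ZT20 to ZT8. The members called were 0 of 81 in each of these 5 tests, and the lowest adjusted p of a member in any of them was 0.519. Of all genes tested, the percentages called were 0.0504%, 0.0659%, 0, 0.0465% and 0.0232% in the same order, which for a list of 81 amounts to less than 1 gene. At an unadjusted p below 0.05, the members counted 3 for any difference (6.19% of all genes), 1 for the 24-h component (5.2%), 4 for the alternation (7.44%), 0 between ZT14 and ZT2 (5.19%), and 3 between ZT20 and ZT8 (5.28%). DESeq2 called 0, 1, 0, 0 and 1 members in those tests, the call being Rps18 both times, and limma-trend called 0 in each.

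The estimates were small as well as uncalled, and most were narrow. The median 24-h amplitude, the log2 distance from mean to peak of a fitted cosine, was 0.028 in the members and 0.096 in all genes tested, and 77 of the 81 amplitudes were below 0.1. An amplitude cannot be below 0, so spread between libraries raises it. The median log2 SD between libraries of one time was 0.086 in the members and 0.188 in all genes. Median amplitudes were 0.029 in the sensory neuron markers and 0.041 in 39 translation factors, so small values were not particular to the members. The highest of the 4 time means exceeded the lowest by a median factor of 1.06, and by less than 1.1 in 68 members and less than 1.25 in 79. For ZT14 against ZT2 the median log2 fold change was 0.023, with 54 of 81 above 0 (49.9% of all genes were above 0). For ZT20 against ZT8 it was -0.0036, with 37 above 0 (50.4% of all genes). The 95% interval of the fold change lay within 1.25-fold either way in 77 members for ZT14 against ZT2 (39.2% of all genes) and in 75 for ZT20 against ZT8 (38.5% of all genes). It did so for both contrasts in 75 members, or 92.6%, against 35.1% of all genes, most of which are at lower levels and have wider intervals. For the 12-h alternation the interval lay within 1.25-fold in 78 members (47.6% of all genes), and the median difference was -0.018, with 24 of 81 above 0 (49.6% of all genes). A p-value that misses the threshold does not show that levels are equal, whereas these intervals give the size of a difference that each gene's data allow.

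**Figure D2:**
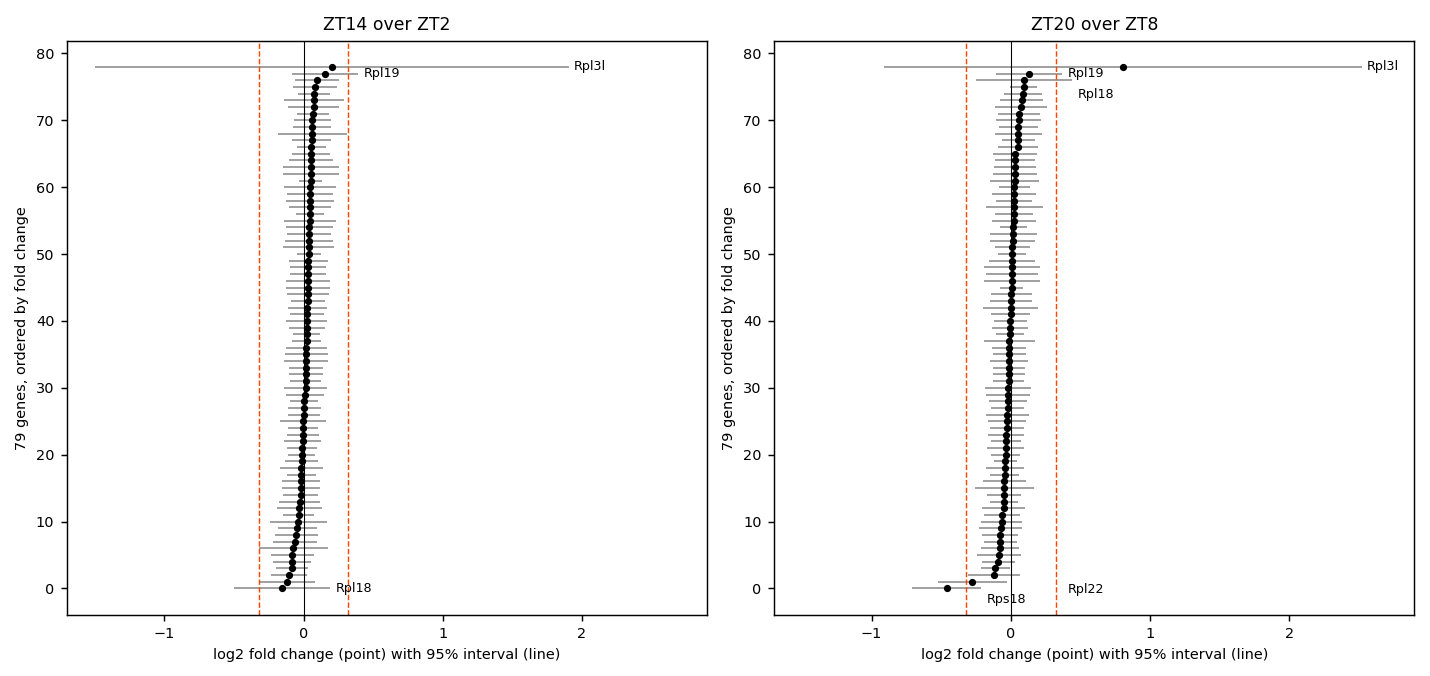
Log2 fold change (points) with its 95% interval (lines) of 79 of the genes, ordered by fold change, for ZT14 over ZT2 (left) and ZT20 over ZT8 (right), with dashed lines at 1.25-fold either way. Named genes have intervals that cross a dashed line, 3 genes on the left and 5 on the right.

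Members whose interval for ZT20 against ZT8 reached past 1.25-fold included Rps18, Rpl22, Rpl18, Rpl19 and Rpl3l, and Rpl18, Rpl19 and Rpl3l also did so for ZT14 against ZT2. Rpl18 is named here after its values were seen. Libraries of the same time differed in it. Rpl18, of the large subunit, had 280.4, 177 and 208 CPM at ZT14 and 270, 227 and 243 CPM at ZT2, and both extremes of the 12 libraries were at ZT14. The SD between libraries of one time, on the log2 scale, was 0.22 for Rpl18, against a median of 0.086 over the members.

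Among the small-subunit proteins, Rps18 had the lowest p of all members for any difference between times. It sits in the head of the small subunit and its message is widely used as a reference in quantitative PCR. It had 97.9, 119 and 119 CPM at ZT2, 117, 138 and 112 CPM at ZT8, 111, 92.4 and 117 CPM at ZT14, and 96.9, 81.3 and 88.3 CPM at ZT20. The 3 libraries of ZT20 were all below the 3 of ZT8. Libraries of these times did not overlap, in either direction, in 3 members (9.9% of all genes), of which Rps18 and Rpl39 were lower and Rpl7l1 was higher at ZT20. The mean was 88.8 ± 7.84 CPM at ZT20 and 122 ± 14.0 CPM at ZT8 (SD, n = 3 each), a ratio of 0.727. Its log2 fold change was -0.46 (95% interval -0.71 to -0.21, adjusted p = 0.643 in edgeR), and the 24-h amplitude was 0.23 (adjusted p = 0.637 in edgeR). DESeq2 gave an adjusted p of 0.0310 for ZT20 against ZT8 and of 0.0463 for the 24-h component. Leaving out each library in turn kept the fold change between -0.36 (without ZT8 replicate 2) and -0.53 (without ZT20 replicate 1). Among the cell type markers, 5 of red cells summed to 1230.5, 901 and 780 CPM at ZT20 and 2270, 2213 and 2404 CPM at ZT8, and 6 of neutrophils to 39.6, 22.8 and 26.3 CPM at ZT20 and 60.7, 80.5 and 75.002 CPM at ZT8, all lower at ZT20. At ZT2 and ZT14 the red cell markers averaged 2864 and 3852 CPM, above their mean of 2295 CPM at ZT8. The neutrophil markers averaged 93.8 and 82.9 CPM there, above 72.1 CPM at ZT8. In mean sums, T and B cell and spinal cord markers were also lower at ZT20 than at ZT8. Those of sensory neurons, satellite glia, Schwann cells, skeletal muscle, macrophages, fibroblasts, endothelium and adipocytes were higher at ZT20. The part of any of these cells in the difference of Rps18 was not tested. The Rps18 gene (chromosome 17, 33951999 to 33956001, minus strand, GRCm38) overlaps Vps52 on the opposite strand, and no source used here says whether reads were counted by strand.

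Other small-subunit proteins differed less. Rps12, a protein of the small subunit's head, had 166, 184 and 172 CPM at ZT2, 195, 183 and 203 CPM at ZT8, 183, 163 and 171 CPM at ZT14, and 186, 179.8 and 185 CPM at ZT20. The mean of ZT2 and ZT14 minus that of ZT8 and ZT20 was -0.12 on the log2 scale (unadjusted p = 0.0083 and adjusted p = 0.519 in edgeR). Rps27 had a difference of -0.13 in the same comparison (adjusted p = 0.633 in edgeR), with mean levels of 454, 499, 453 and 493 CPM in time order. Rps6, whose protein S6 kinases phosphorylate downstream of mTORC1, averaged 508 ± 22.3 CPM at ZT14 and 483 ± 13.8 CPM at ZT2, and 499 ± 8.95 CPM at ZT20 and 500.3 ± 38.6 CPM at ZT8 (SD, n = 3 each). Rps28 and Rps23 had the lowest p of the members for ZT14 against ZT2, with log2 fold changes of -0.10 and -0.09, and neither passed (adjusted p = 1 for both in edgeR). Rps19, which is mutated in the human disorder Diamond-Blackfan anaemia, averaged 139 ± 9.19 CPM at ZT14 and 148 ± 8.26 CPM at ZT2, and Rpsa, also known as the laminin receptor, ranged between 279 and 331 CPM over all libraries.

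Among the large-subunit proteins, Rpl22, Rpl39 and Rpl35a had the lowest p. Rpl22 is the protein that is tagged in RiboTag mice to pull down translated messages, and it had 89.7, 59.3 and 69.1 CPM at ZT20, against 84.6, 91.5 and 88.2 CPM at ZT8. The log2 fold change was -0.28 (95% interval -0.52 to -0.03, adjusted p = 0.936 in edgeR), and ZT20 replicate 1 overlapped the ZT8 libraries. It was -0.46 without ZT20 replicate 1 and -0.16 without ZT20 replicate 2, the extremes of the fits without 1 library. At ZT2 it had 72.7, 76.7 and 73.6 CPM and at ZT14 80.0, 74.2 and 78.6 CPM, so that the ZT8 libraries were above all those of ZT2 and ZT14. Rpl39, a short protein at the exit tunnel for the growing chain, had 99.5, 104 and 95.8 CPM at ZT20, against 106, 108 and 110.3 CPM at ZT8, without overlap but with a log2 fold change of only -0.11 (adjusted p = 0.936 in edgeR). Rpl35a, another protein mutated in Diamond-Blackfan anaemia, had 191, 225 and 193 CPM at ZT2, 218, 228 and 228 CPM at ZT8, 204, 181 and 177 CPM at ZT14, and 255, 216 and 204 CPM at ZT20. The mean of ZT2 and ZT14 minus that of ZT8 and ZT20 was -0.20 on the log2 scale, and the groups overlapped (unadjusted p = 0.0079 and adjusted p = 0.519 in edgeR). Rpl27 had -0.13 in the same comparison (adjusted p = 0.608 in edgeR).

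The remaining large-subunit members named for other uses or roles varied little with time. Rpl13a, a reference in quantitative PCR that also acts in interferon signalling, averaged 431 ± 46.9 CPM at ZT14 and 418 ± 16.8 CPM at ZT2, and 429 ± 18.3 CPM at ZT20 and 420 ± 15.5 CPM at ZT8 (SD, n = 3 each). Rplp0, of the stalk and also a common reference, averaged 509 ± 34.6 CPM at ZT14 and 486 ± 15.8 CPM at ZT2, and 512 ± 19.7 CPM at ZT20 and 493 ± 21.2 CPM at ZT8. Rpl5 and Rpl11, which with 5S RNA bind MDM2 when ribosome assembly fails, had log2 fold changes of 0.02 and 0.10 for ZT14 against ZT2 and of -0.05 and 0.01 for ZT20 against ZT8. Rpl10a, the protein tagged in translating ribosome affinity purification, had 0.02 and 0.03. Rpl19, of the large subunit, had the highest log2 fold change of the members other than Rpl3l for ZT14 against ZT2, 0.16 (adjusted p = 1 in edgeR), with 389, 385 and 392 CPM at ZT14 and 297, 357 and 392 CPM at ZT2. Its ZT2 libraries spread over a range that reached the ZT14 values. In this contrast 1 member had no overlap (11.2% of all genes), Rpl14, named after its values were seen, at 341, 323 and 321 CPM at ZT14 and 316, 320 and 316 CPM at ZT2.

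**Figure D3:**
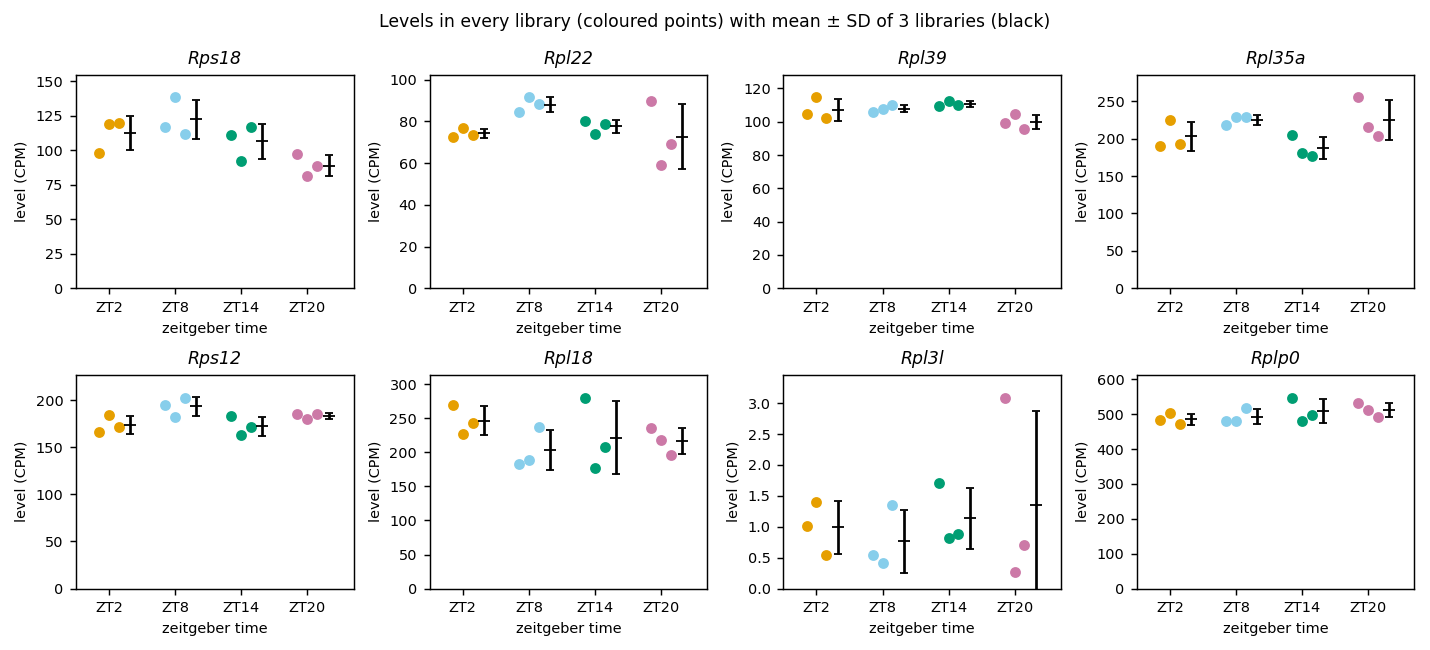
Levels (CPM, axes from 0) of 8 members by zeitgeber time, with each library as a coloured point and the mean ± SD of 3 libraries in black. Rps18 was lowest at ZT20, where its 3 libraries lay between 81.3 and 96.9 CPM, Rpl18 has its highest and its lowest library at ZT14, and for Rpl3l at ZT20 the SD is larger than the mean.

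The paralogs replace or accompany a standard ribosomal protein in some tissues. All 4 were expressed below their partner in every library, and no group of libraries of one time stood apart from the rest in the share of paralog to partner. Rpl22l1, which in mice is held down by Rpl22 itself, had the highest share, 59.7% of the level of Rpl22 as the mean of 12 libraries. That share was 60.6, 64.1 and 61.1% at ZT2, 60.04, 54.6 and 52.2% at ZT8, 57.3, 55.01 and 56.02% at ZT14, and 54.1, 81.1 and 60.4% at ZT20. The high value of ZT20 replicate 2 coincided with the lowest Rpl22 level of any library, 59.3 CPM, whereas Rpl22l1 had 48.1 CPM there, within its range elsewhere. Rps27l, a paralog that p53 induces, stood at 7.97 to 10.6% of Rps27. Rpl7l1 stood at 7.22 to 8.65% of Rpl7, and its 33.2, 32.7 and 31.6 CPM at ZT20 lay above its 31.3, 29.8 and 30.2 CPM at ZT8 without overlap (log2 fold change 0.09, adjusted p = 0.939 in edgeR).

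Rpl3l, the paralog of Rpl3 made in skeletal muscle and heart, had the lowest level and moved with muscle messages. It had 1.01, 1.41 and 0.55 CPM at ZT2, 0.54, 0.41 and 1.35 CPM at ZT8, 1.71, 0.82 and 0.88 CPM at ZT14, and 3.08, 0.26 and 0.70 CPM at ZT20. It was thus highest in ZT20 replicate 1 and lowest in ZT20 replicate 2, with overlap between all times. Acta1, the actin of skeletal muscle, had 95.4, 116 and 25.9 CPM at ZT2, 43.4, 23.6 and 129 CPM at ZT8, 149, 66.1 and 62.7 CPM at ZT14, and 289.9, 7.56 and 32.02 CPM at ZT20, with the same highest and lowest library. The part of muscle tissue in the Rpl3l values was not tested. Rpl3 itself, which lies near the catalytic centre, ranged between 445 and 522 CPM, so that Rpl3l stood at 0.054 to 0.59% of it.

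The members differed between libraries of one time together rather than with the time. Their summed level was 24195, 26045 and 24320 CPM at ZT2, 24318, 25232 and 27042 CPM at ZT8, 27142, 24249 and 24272 CPM at ZT14, and 26195, 25679 and 24714 CPM at ZT20. This is 2.42 to 2.71% of a library's total after scaling by its normalization factor, in values that follow coverage, and not a share of reads. The means were 24853 ± 1034, 25531 ± 1386, 25221 ± 1664 and 25529 ± 752 CPM in time order (SD, n = 3 each), so the difference between any 2 of these means was smaller than each of the SDs. Members above their own mean over 12 libraries numbered 13, 65 and 7 of 81 at ZT2, 17, 38 and 74 at ZT8, 74, 10 and 14 at ZT14, and 59, 57 and 19 at ZT20, whereas the share of all genes above their mean stayed between 51.0 and 52.7%. In ZT14 replicate 1 the 7 members that were not above their mean were Rpl22l1, Rpl27, Rpl35a, Rps20, Rps23, Rps27 and Rps27l. In ZT8 replicate 3 the 7 were Rpl15, Rpl19, Rpl22l1, Rpl7l1, Rps15a, Rps24 and Rps27l, so that the paralogs Rpl22l1 and Rps27l were below in both. The subunits moved together, and the mean level per large-subunit gene was 1.101 to 1.140 times that per small-subunit gene in every library.

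**Figure D4:**
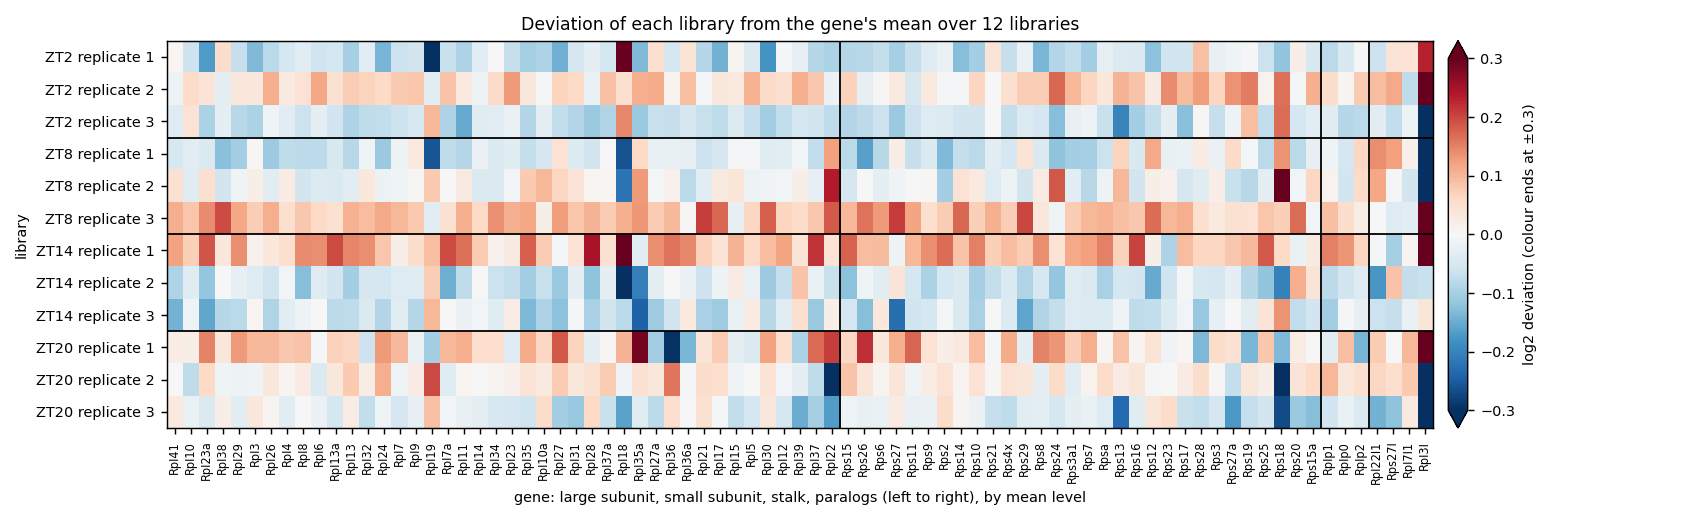
Log2 deviation of each library (rows, in time order) from each gene's mean over 12 libraries (columns, 79 of the genes, by class and level), with red above, blue below and the colour ending at 0.3. ZT8 replicate 3 and ZT14 replicate 1 are red across most genes, with 74 of 81 above their mean, and ZT2 replicate 3 is blue, with 7 of 81 above.

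The 4 libraries with the highest summed level after scaling, ZT2 replicate 2, ZT8 replicate 3, ZT14 replicate 1 and ZT20 replicate 1, were 1 at each time. Their normalization factors were 1.009, 0.978, 0.970 and 0.979, and that of ZT20 replicate 2 was 1.001. Without this scaling the sum of ZT20 replicate 2 would lie just above that of ZT20 replicate 1, so this set of 4 depends on the scaling. The value of a coverage of 1 set the same 4 apart. The sum of 9 of the 10 listed skeletal muscle markers did so too, but that of all 10 did not. Of the 81 members, 41 were above their mean in all 4 and 30 in 3 of them. The value that the deposited table gives for a coverage of 1 was 16.86, 16.53, 16.53 and 16.40 in those libraries and 17.00 to 17.24 in the other 8. The median log2 deviation of 5537 other genes with transcripts shorter than 1000 bases was 0.001, 0.022, 0.038 and 0.018 in the 4 libraries. It was -0.012 to 0.006 in the others, a range that holds the value of ZT2 replicate 2. For 2871 genes with transcripts longer than 3000 bases it was -0.013, -0.047, -0.046 and -0.075 in the 4 libraries. In the others it was -0.004 to 0.046, so the long transcripts set the 4 apart. The part of transcript length in the summed level was not tested. The members' messages are themselves abundant and short, and whether the coverage value is independent of their sum was not tested. Skeletal muscle markers, of which 10 were listed, summed to 470, 498, 542 and 974 CPM in the 4 libraries and to 186 to 473 CPM in the others. The sums of the 10 thus overlapped. Of the 10, Pvalb is also made by proprioceptive neurons, and the other 9 (Acta1, Ckm, Tnnt3 and the like) summed to 279, 284, 341 and 730 CPM against 21.5 to 250.02 CPM. The separation by muscle markers thus rests on leaving out Pvalb. Their part in the summed level was not tested. ZT2 replicate 1 had 250.02 CPM of the 9, and 13 of its 81 members were above their mean. ZT20 replicate 2 had the lowest of these muscle sums, 21.5 CPM, and 57 of its 81 members were above their mean. Without those 4 libraries, a choice made after seeing the data, 0 members were called in each test, and the median log2 fold change of ZT14 to ZT2 was 0.008 and that of ZT20 to ZT8 was 0.017.

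**Figure D5:**
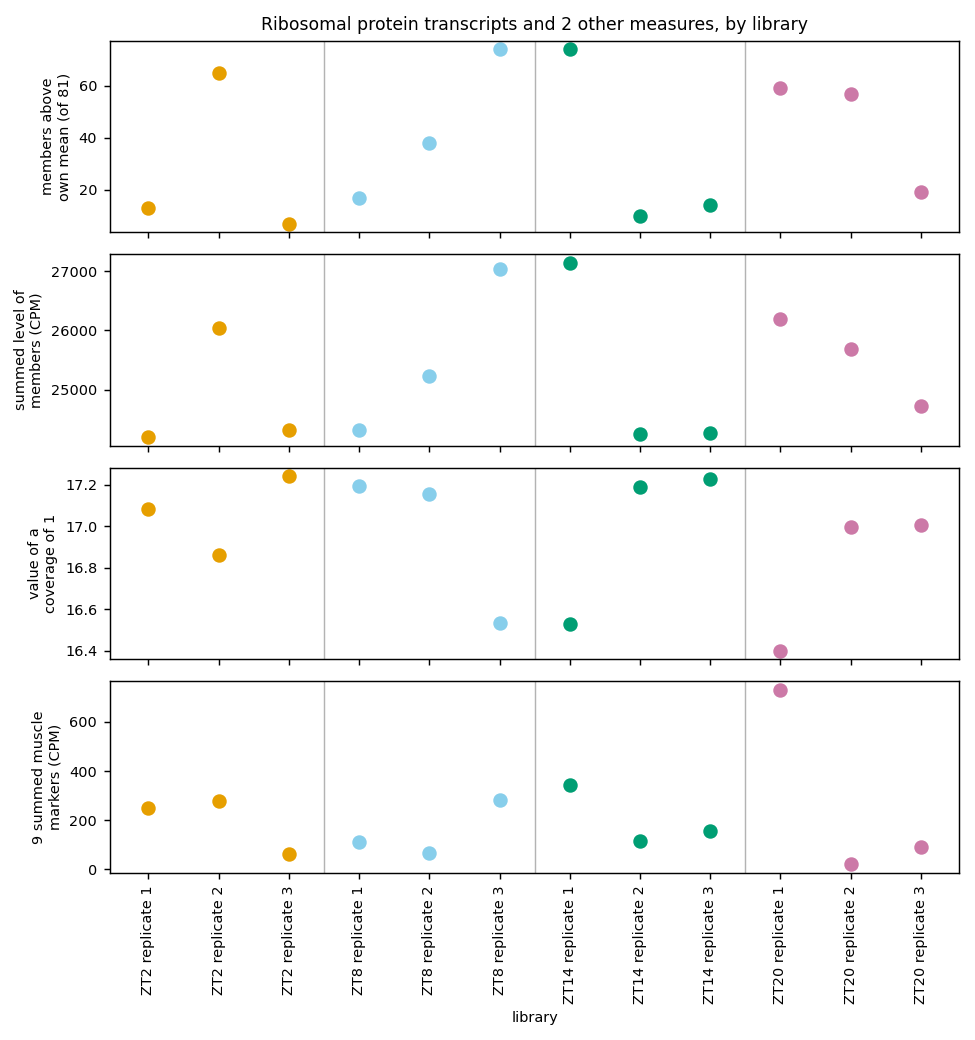
For each library in time order, the number of members above their own mean, their summed level (CPM), the value of a coverage of 1 and the summed level of 9 skeletal muscle markers (CPM), with vertical axes that do not start at 0. ZT2 replicate 2, ZT8 replicate 3, ZT14 replicate 1 and ZT20 replicate 1 are high in the first, second and last panels and low in the third.

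Other parts of the translation machinery were not called either. The 4 further genes of the cytoplasmic ribosome (among them Fau, which encodes a ribosomal protein fused to a ubiquitin-like protein, Rack1 and Rpl36al), 34 ribosome assembly factors, 15 genes of RNA polymerase I and its factors, 39 translation factors and 15 genes of the mTOR pathway or regulators of terminal oligopyrimidine messages had 0 genes called in each of the 5 tests. Unadjusted p below 0.05 for any difference between times was found in 0, 4 (11.8%), 0, 3 (7.69%) and 0 of their genes, against 6.19% of all genes tested. The lowest in the assembly factors was that of Gnl3, the nucleolar GTPase nucleostemin, with means of 31.4, 33.5, 30.4 and 30.5 CPM in time order (adjusted p = 0.656 in edgeR). Among the translation factors Eif3d, a subunit of the initiation factor eIF3, had 107, 119, 114 and 119 CPM (adjusted p = 0.524 in edgeR). Mtor itself had 25.2, 32.5, 24.2 and 23.1 CPM (adjusted p = 0.817 in edgeR). Median log2 fold changes of these lists were between -0.02 and 0.02 for ZT14 against ZT2 and between -0.04 and 0.03 for ZT20 against ZT8.

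Ribosomal proteins of mitochondria, encoded by a separate set of nuclear genes, were likewise not called (0 of 77 tested in each test), and their median level was 39.1 CPM. Their summed level was 3475, 3688 and 3513 CPM at ZT2, 3506, 3553 and 3717 CPM at ZT8, 3852, 3470 and 3526 CPM at ZT14, and 3826, 3731 and 3631 CPM at ZT20. In these scaled values the highest library at each time was the same one as for the cytoplasmic proteins. Of 171 ribosomal protein pseudogenes tested, 0 were called, and their median level was 1.34 CPM. Levels of pseudogenes and members that share sequence depend on each other's assigned reads.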

How the data were processed

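Polyadenylated RNA of lumbar DRG was sequenced as paired reads of 150 bases, per the labels' protocols. Per the submitters' processing notes, HISAT2 2.2.1, StringTie 2.1.5 and build GRCm38.p6 were used. No source used here gives their settings or the annotation. The authors deposited estimated counts, with decimals, for each gene, and rounding made them whole for the tests. They scale with coverage: the value of a coverage of 1 was shared by 63 to 88 genes of differing length in each library. Read depth was therefore only approximated, and counting error is not modelled exactly. Of 38942 rows, 348 assembled loci (0.203 to 0.231% of a library) were left out. Symbols and coordinates came from GENCODE M21, which matched 38462 of 38594 IDs, and sequences from RefSeq.

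edgeR 4.0.16 in R 4.3.3 (filterByExpr, TMM, robust quasi-likelihood fit, 4 times over all 12 libraries) tested 25809 genes, 12785 being below the filter. Adjustment was by Benjamini-Hochberg over all genes tested, with 0.05 as the threshold, and intervals are 95% intervals from that fit. Alternatives used DESeq2 1.42.0, limma 3.58.1, other scalings and filters, approximate reads, a replicate block and left-out libraries. The fits were tested on simulated data. Tables and figures used Python 3.11.15, pandas 2.3.3 and matplotlib 3.10.9.

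The genes and lists were chosen with earlier results of these data known. Genes were named if called, among the 5 lowest p-values of a test, among the 5 highest or lowest levels, members of a paralog pair, or known for another use or role, which gave 32 of the 81. Other members named are said to have been chosen after their values were seen, or are listed by library, by shared sequence or by paralog partner. Library numbers in the labels follow the order of the times, so that batch and time cannot be told apart. Values of some members and list genes are not reported here, though they stay in the counts and sums.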

Additional observations from a re-analysis of the deposited data

How the results depend on the processing

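The count of members called stayed at 0 in all 5 tests under other normalization (RLE), scaling without the members or without mitochondrial genes, no filter, a mean of at least 1 CPM, limma-trend, approximate reads, and each of 12 fits without 1 library (0 to 0). It also stayed at 0 with only the 6 libraries of a contrast and, as alternatives chosen after seeing the data, without 4 libraries or with a short-transcript index of each library as a covariate. DESeq2 was the exception, with 1 member, Rps18, called for the 24-h component and 1 for ZT20 against ZT8. DESeq2 also called more genes over the whole table than edgeR, 292 against 13 for any difference, 162 against 17, 124 against 0, 106 against 12 and 68 against 6 in the order of the tests.

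The replicate numbers of the labels did not pair libraries across times: the correlation of deviations over the 18 pairs with the same number ranged between -0.06 and 0.08. With a replicate block, 0 members were called in each test, and the whole table gave 7, 4, 0, 5 and 2 calls.

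The median log2 fold change of the members for ZT14 against ZT2 was -0.035 without ZT14 replicate 1 and 0.054 without ZT2 replicate 2, against 0.023 with all libraries, and -0.024 with the covariate. For ZT20 against ZT8 it was -0.036 without ZT8 replicate 1 and 0.027 without ZT8 replicate 3, against -0.0036 with all libraries, and -0.043 with the covariate. The direction of both medians thus rests on single libraries. With 3 libraries at each time, precision is limited, the depth is known only approximately, and batch cannot be told apart from time.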
